A study of Mus musculus with 26 samples.

Results

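Brown adipose tissue of fasted mice with a deletion of Klf15 in brown adipocytes was compared with that of fasted mice without the deletion, both kept at room temperature. The comparison rests on 6 of the 26 RNA sequencing libraries of the series, 3 BKO and 3 FF, and on every gene with at least 1 FPKM in at least 3 of these 6, which are 11814 of the 48432 genes in the table. FPKM count sequenced fragments relative to transcript length and to all fragments mapped in a library, so levels can be set side by side between genes. BKO mice (K15-BKO, genotype Ucp1-Cre/+;K15F/F) carried floxed Klf15 alleles with 1 copy of a Cre recombinase driven by the promoter of Ucp1, a gene of brown adipocytes, and FF mice (K15FF, genotype KLF15 flox/flox) carried the floxed alleles alone. All mice were 2 months old, and the labels give each library an animal number of its own. Duration of fasting and sex are not stated in the labels. Fed mice at room temperature and mice in cold plus fasting, 3 BKO and 3 FF libraries in each condition, are used below where they show in which condition a gene differed. The Cre acts in cells that express Ucp1, and other cells of the depot keep an intact Klf15 gene.

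KLF15 is a zinc finger transcription factor of the Krüppel-like family. Factors of this family bind GC-rich and CACCC sequences, and KLF15 is known in liver, muscle and heart for its action on enzymes that break down amino acids and on the switch between lipid and glucose use in fasting. Brown adipocytes burn fatty acids, glucose and amino acids in their many mitochondria. During a fast adipocytes release fatty acids from triglyceride, while lipid synthesis and insulin-driven glucose uptake decline.

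Genotype and library number cannot be told apart in this comparison. Fasted BKO libraries carry the library numbers 26, 27 and 28 and the animal numbers 3759 to 3763, and fasted FF libraries carry the library numbers 1, 2 and 3 and the animal numbers 100 to 102. Nothing in the labels says what the numbers stand for. Counts below are therefore also given from a fit with early (up to 8) or late (from 15) library number as a covariate. The covariate is estimated from FF mice fed or in cold, the groups that hold both kinds. Their only late libraries are fed FF replicate 3 and cold FF replicate 1, so every estimate with the covariate leans on few animals. Mice in cold plus fasting all carry late numbers, 20 to 25. Fed BKO libraries carry late numbers, and of the fed FF libraries replicates 1 and 2 carry early numbers and replicate 3 a late one.

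Depth of the libraries is unknown, since the files used here give no counts. The FPKM of a library summed to 388107 to 430138 over these 6, and 11579 to 11868 genes reached 1 FPKM. Correlation between libraries on log2(FPKM + 1) had a median of 0.983 within and 0.974 between the genotypes. Along the first principal component (40.6% of the variance) the genotypes were apart, with the 3 BKO libraries at -20.5 to -12.5 and the 3 FF libraries at 4.92 to 24.5. The second held 21.8% and set FF replicate 2, at -21.4, apart from the other 5 libraries, which lay at -6.18 to 15.3.

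The tissue carried its own markers. All 13 brown adipocyte markers were tested, and their FPKM summed to between 20400 and 24000 in BKO libraries, against 18600 to 19200 in FF libraries. Without the most abundant, Fabp4, the sums were 12500 to 15400 FPKM in BKO and 10700 to 11800 FPKM in FF libraries. The members did not move together, with 3 called higher and 2 lower. Kcnk3, for one, had 230 to 248 FPKM in BKO and 277 to 328 FPKM in FF libraries. Ucp1, the uncoupling protein of brown fat mitochondria, had 2524, 3666 and 3490 FPKM in BKO mice and 2083, 3360 and 2178 FPKM in FF mice, with overlap (log2 difference 0.36, SE 0.20, limma, adjusted p = 0.296, and -0.39 with the covariate). Skeletal muscle markers were present at low levels and differed between libraries. The 15 genes summed to 174, 48.1 and 51.6 FPKM in BKO libraries, against 85.3, 18.1 and 18 FPKM in FF libraries, and the 10 tested were all higher in BKO on average (median log2 difference 1.29), of which Myl1 alone was called (0.61, limma, adjusted p = 0.0336). Replicate 1 of either genotype held the most, and 0 of the 15 markers were at 0 in all 6 libraries. With the covariate the median of the 10 tested was 3.58, with 0 called by limma and all 10 at an unadjusted p under 0.05. The late libraries behind the covariate held little Pvalb for their groups. Fed FF replicate 3 had 0 FPKM, against 4.46 and 8.17 FPKM in replicates 1 and 2. Cold FF replicate 1 had 0.584 FPKM, against 8.61 to 25.6 FPKM in the other cold FF libraries. The part of muscle in the covariate was not tested. Of 12 tested macrophage and class II genes 0 were called by limma, 3 at an unadjusted p under 0.05, and the list's summed level was 214 to 246 FPKM in BKO and 221 to 248 FPKM in FF libraries, with the defining gene Adgre1 near 1 FPKM in all 6. Fibroblast and progenitor genes summed to 362 to 396 FPKM in BKO and 442 to 497 FPKM in FF libraries, with 1 of 8 tested lower (Gsn). Most of that sum is Gsn, and without it the list stood at 92 to 101 FPKM in BKO and 86.7 to 106 FPKM in FF libraries, with overlap. Pericyte and smooth muscle genes stood at 158 to 173 FPKM in BKO and 136 to 151 FPKM in FF libraries, and without the most abundant, Rgs5, at 62.4 to 67.3 FPKM in BKO and 58.8 to 63.6 FPKM in FF libraries, with overlap. Nerve and Schwann cell genes stood at 59.2 to 76.3 FPKM in BKO and 44.1 to 59.1 FPKM in FF libraries, and without S100b at 18.3 to 19.7 FPKM in BKO and 18.1 to 21.1 FPKM in FF libraries, with overlap. Lymphocyte genes were low, at 9.73 to 11 FPKM in BKO and 6.59 to 7.78 FPKM in FF libraries, and did not overlap. Endothelial genes summed to 373 to 463 FPKM in BKO and 324 to 447 FPKM in FF libraries. Erythroid genes summed to 158 to 292 FPKM in BKO and 226 to 266 FPKM in FF libraries. White adipocyte markers summed to 407 to 464 FPKM in BKO and 377 to 442 FPKM in FF libraries, and Tcf21 was at 0 in all 6. The part of these cells in the results was not tested. In a whole depot, fewer cells of a type and less RNA per cell cannot be told apart.

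Klf15 (chromosome 6, 90462576 to 90475238 on GRCm38) had 8.92, 7.94 and 8.82 FPKM in fasted BKO mice and 24.5, 18.8 and 29.1 FPKM in fasted FF mice. The groups did not overlap, and BKO mice held 35.5% of the FF level (log2 difference -1.38, SE 0.19, limma, adjusted p = 4.93e-05). In fed mice the same difference was -2.55, from 3.99 ± 1.03 FPKM in BKO mice, against 28 ± 3.87 FPKM in FF mice (SD, n = 3 each). The genotype difference was thus smaller in fasted than in fed mice by 1.17 (SE 0.27, adjusted p = 0.0369, and 0.0488 with the covariate). Within BKO mice alone, all of late library numbers, Klf15 was higher fasted than fed by 0.96 (adjusted p = 0.000526).

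Over all genes 1117 (9.45%) differed between fasted BKO and FF mice at an adjusted p under 0.05 by limma, 582 higher (4.93%) and 535 lower (4.53%) in BKO mice. The differences are on the log2(FPKM + 1) scale, which understates the change of genes at low levels, and the median of all genes was -0.0047. Without overlap of the 3 against 3 libraries, BKO mice lay above FF mice in 1454 genes (12.3%) and below them in 1346 (11.4%). Some genes had all values of 1 group under 1 FPKM and passed the filter only through the other group. Their lack of overlap is fixed by the filter, and their p-values do not account for this selection. Among the genes named below these are Hpd, Cbs, Cth, Osbp2, Slc1a4, Cyp4a10, Fndc5, 2610507I01Rik, Gm27533 and Gm25835. The split of the calls depended on the fit. With the covariate 152 genes were called, 54 higher and 98 lower, and with the 6 libraries alone 162 were (1.37%), 52 higher and 110 lower, so that 35.5% and 32.1% of the calls were rises, against 52.1% in the fit of all libraries. The count was 428 without BKO replicate 3 and 463 without FF replicate 3. Omitting replicate 1 of a genotype, the library with the most muscle transcript, left 985 calls (BKO) and 942 calls (FF). Of the 1117 genes, 334 kept their call without each of the 6 libraries in turn. A core of 82 genes, 21 higher and 61 lower, was called in the fit of all libraries, without each of the 6, in the 6 alone and with the covariate.

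**Figure D1:**
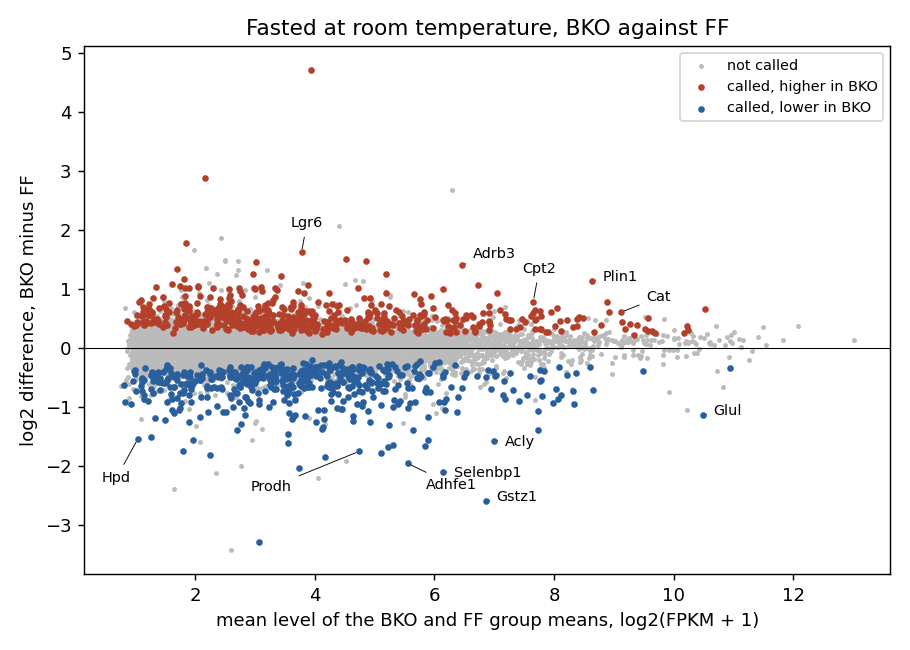
Log2 difference, BKO minus FF, of each of the 11814 genes (vertical axis) against the mean of its group levels as log2(FPKM + 1) (horizontal axis), fasted at room temperature. Red points are the 582 genes higher and blue points the 535 genes lower in BKO mice, with Gstz1 at -2.59 among the lowest of the abundant genes and Plin1 at 1.14 among the highest. The red point near 4.7 is Gm27533, a short RNA listed at 0 in all FF libraries.

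Many genes of amino acid metabolism were lower in BKO mice. The 4 lists read here hold enzymes of amino acid breakdown, their regulators and glutamine synthetase. Of 56 genes tested 22 fell and 1 rose, against 4.53% lower and 4.93% higher over all genes. The same shares stand beside the count of every list below. All lists were chosen with earlier results of these data known. Of the 22, 16 belong to the core of 82 genes. Hpd, Cbs and Cth are in both counts. They passed the filter only through their FF libraries, so the filter favoured their falls. Falls were called in each of the 4 lists, from the first step of proline and branched-chain breakdown to the last steps of tyrosine breakdown. With the covariate 4 tyrosine genes, 5 of the proline and glutamate list, 4 branched-chain genes and 4 of the list with sulfur amino acids were called lower.

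In tyrosine breakdown 3 of 6 tested genes fell and 0 rose (median -0.68). Hpd, the dioxygenase that makes homogentisate, had 0, 0.0577 and 0.0817 FPKM in BKO mice and 1.85, 1.66 and 2.71 FPKM in FF mice. All BKO libraries were near 0, so Hpd passed the filter only through its FF libraries, all above 1 FPKM (log2 difference -1.54, SE 0.13, limma, adjusted p = 4.78e-08). Gstz1, maleylacetoacetate isomerase, had 30.8, 30.8 and 34.5 FPKM in BKO mice and 200, 187 and 207 FPKM in FF mice, far apart and with little spread within either group, at 16.2% of the FF level (-2.59, SE 0.12, adjusted p = 2.05e-12). Fah, fumarylacetoacetase, the enzyme of the last step, had 26.2, 30.3 and 33.5 FPKM in BKO mice and 57.5, 53.8 and 74.9 FPKM in FF mice. Its groups stood apart at 48.4% of the FF level (-1.02, SE 0.12, adjusted p = 5.19e-06).

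Enzymes around glutamate followed, with 5 of 10 tested lower and 0 higher (median -0.51). Prodh, the first enzyme of proline breakdown, had 11.5, 9.41 and 12.8 FPKM in BKO mice and 44.1, 32.6 and 44.2 FPKM in FF mice (-1.75, SE 0.17, adjusted p = 5.18e-07). Every BKO library held less than every FF library, and the same was true of the second enzyme, Aldh4a1, at 27 ± 1.01 FPKM in BKO mice, against 51.2 ± 8.27 FPKM in FF mice (SD, n = 3 each; -0.89, adjusted p = 2.79e-06). Oat, ornithine aminotransferase, stood at 27.6 ± 1.64 FPKM in BKO mice, against 54.6 ± 7.46 FPKM in FF mice (-0.95, adjusted p = 4.05e-06). Glud1, the mitochondrial glutamate dehydrogenase, stood at 59.5 ± 3.14 FPKM in BKO mice, against 106 ± 5.01 FPKM in FF mice (-0.83, adjusted p = 1.53e-07). Glul, glutamine synthetase and by far the most abundant of them, had 1087, 846 and 732 FPKM in BKO mice and 2162, 1393 and 2381 FPKM in FF mice (-1.14, SE 0.15, adjusted p = 3.5e-05). Glud1 and Glul have annotated pseudogene copies, as has Gstm2, and how reads were shared among them is not given in the sources used here.

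Among branched-chain enzymes and their regulators 9 of 24 fell and 1 rose, Bckdk (median -0.11). In the 6 libraries alone 5 were called lower and 0 higher, so the rise of Bckdk was not called there. Bcat2, the mitochondrial aminotransferase of the first step, had 42.1, 42.1 and 52.6 FPKM in BKO mice and 81.4, 76 and 103 FPKM in FF mice (-0.91, SE 0.13, adjusted p = 7.39e-05). Further along the valine and leucine branches, Aldh6a1 stood at 173 ± 17.1 FPKM in BKO mice, against 333 ± 39.2 FPKM in FF mice (SD, n = 3 each; -0.93, adjusted p = 5.28e-05) and Ivd at 50.7 ± 0.952 FPKM in BKO mice, against 93.3 ± 9.81 FPKM in FF mice (-0.86, adjusted p = 4.25e-07). Both regulators of the branched-chain keto acid dehydrogenase were called in the fit of all libraries, in opposite directions. Bckdk, the kinase that switches the complex off, had 56.2, 65.7 and 71.2 FPKM in BKO mice and 45.4, 45.3 and 40.4 FPKM in FF mice (0.54, SE 0.09, adjusted p = 0.000294). Ppm1k, the phosphatase that switches it on, had 4.01, 3.87 and 3.15 FPKM in BKO mice and 9.89, 7.90 and 7.65 FPKM in FF mice (-1.02, adjusted p = 0.00141, but 0.118 with the covariate); it was chosen after its values were seen.

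Sulfur amino acid and related enzymes showed some of the widest gaps, with 5 of 16 lower and 0 higher (median -0.21). Selenbp1, a methanethiol oxidase, had 29.7, 21.8 and 25.7 FPKM in BKO mice and 108, 96.1 and 138 FPKM in FF mice (-2.10, SE 0.15, adjusted p = 2.92e-09). Cbs, cystathionine beta-synthase, had 0.569, 0.444 and 0.554 FPKM in BKO mice and 2.43, 2.25 and 2.75 FPKM in FF mice (-1.19, adjusted p = 3.26e-06). Cth, the lyase that follows it on the way to cysteine, had 0.129, 0.299 and 0.288 FPKM in BKO mice and 2.67, 1.98 and 2.96 FPKM in FF mice (-1.51, adjusted p = 8.62e-07). Cbs and Cth are low transcripts in this tissue. All their BKO values were under 1 FPKM, so both genes passed the filter only through their FF libraries. Their lack of overlap is fixed by that filter and lends no support. Dhtkd1 of lysine breakdown fell by 0.91 and Gcdh by 0.35 on the log2 scale.

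**Figure D2:**
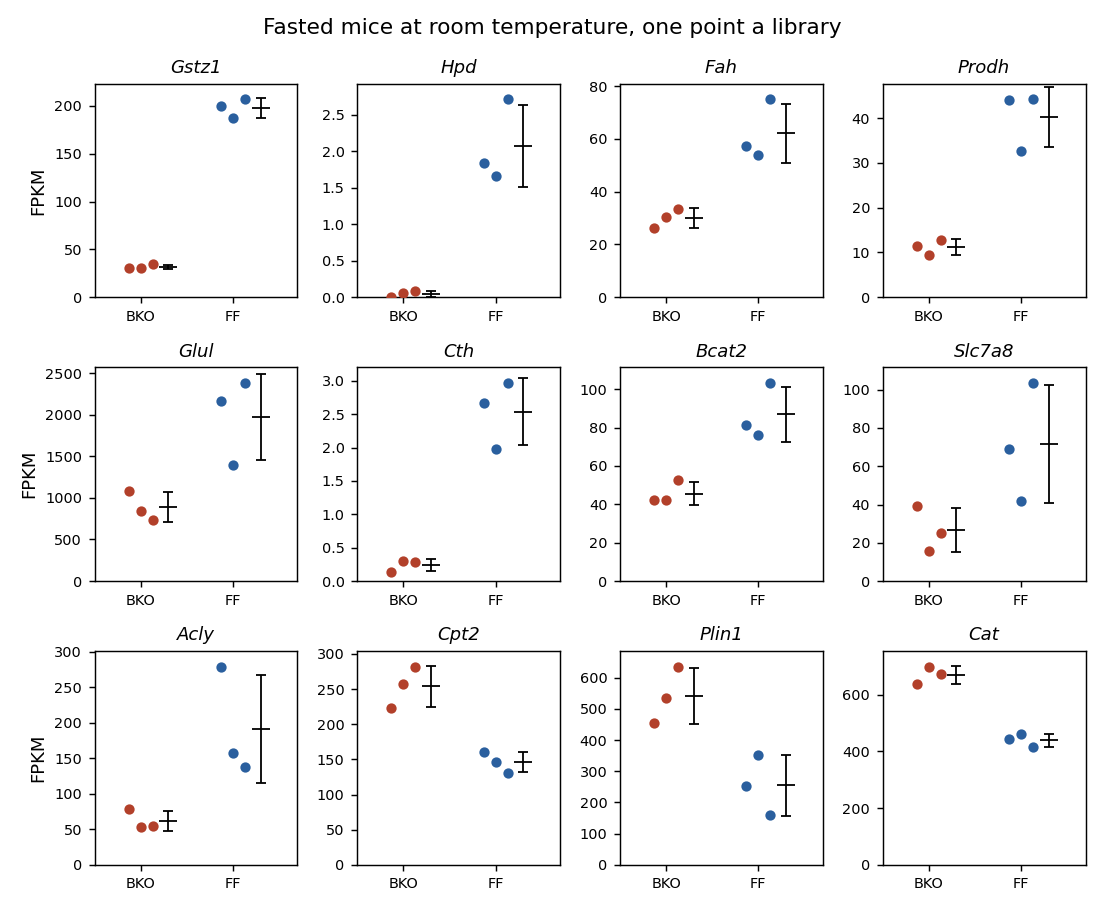
FPKM of 12 genes in each of the 6 fasted libraries (vertical axes, from 0), BKO in red on the left and FF in blue on the right, with the mean and SD of each group as black bars. BKO libraries lie below FF libraries in the first 9 panels, from Gstz1 to Acly, and above them for Cpt2, Plin1 and Cat.

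Among amino acid transporters 4 of 18 tested were lower and 1 was higher (median -0.22), and with the covariate 1 was lower, Slc1a5. In the 6 libraries alone 0 of the 18, Slc1a5 included, were called by limma, 8 at an unadjusted p under 0.05. Slc7a8, a neutral amino acid exchanger, had 39.1, 15.8 and 25.1 FPKM in BKO mice and 69.3, 41.8 and 103 FPKM in FF mice (-1.39, SE 0.27, adjusted p = 0.00198, but 0.119 with the covariate). Fed mice held it at 0.645 ± 0.118 FPKM in BKO mice, against 1.11 ± 0.499 FPKM in FF mice (SD, n = 3 each). At room temperature the transcript was thus far higher in fasted mice of either genotype. In cold plus fasting it was low, at 0.409, 0.509 and 0.327 FPKM in BKO mice and 1.77, 1.40 and 0.596 FPKM in FF mice. Slc1a5, a glutamine transporter, had 154, 104 and 146 FPKM in BKO mice and 300, 185 and 228 FPKM in FF mice (-0.80, adjusted p = 0.00121). Slc43a1 fell by 1.40 and Slc1a4 by 0.65, while the proton-coupled carrier Slc36a2 was higher by 0.37 with overlapping libraries.

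Of 28 genes of the list of glutathione transferases and antioxidant genes 5 were lower and 2 higher (median -0.10), and with the covariate 4 were lower. All 7 are transferases. The 2 higher ones were Gstt1 and Gsto2, each by 0.61 (adjusted p = 0.0124 and 0.0134, but 0.0745 and 0.148 with the covariate). Gstm7 had 1.17, 1.06 and 1.03 FPKM in BKO mice and 7.60, 5.23 and 6.33 FPKM in FF mice (-1.81, SE 0.14, adjusted p = 6.25e-09). Gstk1 of mitochondria and peroxisomes fell by 0.90, Gstm1 by 0.91 and Gstm2 by 0.68. Genes of the Gstm family are close paralogs, so the division of reads between them is uncertain. Adhfe1, a mitochondrial hydroxyacid transhydrogenase, belonged to no list and had 17.8, 19.7 and 17.1 FPKM in BKO mice and 83, 70.5 and 67.2 FPKM in FF mice (-1.95, SE 0.11, adjusted p = 8.66e-11). Aldh1l1, a folate enzyme that oxidises formyl groups, stood at 29.9 ± 9.12 FPKM in BKO mice, against 87 ± 5.60 FPKM in FF mice (SD, n = 3 each; -1.55, adjusted p = 1.91e-06).

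The stretch just before the start site is shown for 3 genes with large falls in fasted mice both at room temperature and in the cold, and for Selenbp1, called at room temperature and not in cold plus fasting. The 250 bases before a RefSeq start on GRCm38.p6 are written 5′ to 3′ on the gene's strand, with CACCC, or GGGTG where it lies on the other strand, in capitals. The windows are chr12:87146915-87147164 on the plus strand for Gstz1, chr3:107931818-107932067 on the minus strand for Gstm7, chr5:123182724-123182973 on the minus strand for Hpd and chr3:94932833-94933082 on the plus strand for Selenbp1.
Gstz1: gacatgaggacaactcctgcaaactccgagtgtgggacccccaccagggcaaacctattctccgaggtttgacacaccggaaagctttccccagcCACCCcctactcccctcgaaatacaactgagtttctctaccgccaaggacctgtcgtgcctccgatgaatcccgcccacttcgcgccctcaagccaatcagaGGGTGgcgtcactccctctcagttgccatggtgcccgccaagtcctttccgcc
Gstm7: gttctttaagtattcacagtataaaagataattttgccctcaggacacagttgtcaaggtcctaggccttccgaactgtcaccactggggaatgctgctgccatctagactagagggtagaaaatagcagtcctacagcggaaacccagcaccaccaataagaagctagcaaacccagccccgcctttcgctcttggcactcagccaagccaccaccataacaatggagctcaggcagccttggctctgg
Hpd: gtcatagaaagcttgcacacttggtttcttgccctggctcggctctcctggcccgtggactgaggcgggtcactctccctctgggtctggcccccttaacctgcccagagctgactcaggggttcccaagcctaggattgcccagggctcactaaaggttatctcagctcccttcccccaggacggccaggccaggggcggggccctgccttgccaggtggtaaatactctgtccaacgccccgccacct
Selenbp1: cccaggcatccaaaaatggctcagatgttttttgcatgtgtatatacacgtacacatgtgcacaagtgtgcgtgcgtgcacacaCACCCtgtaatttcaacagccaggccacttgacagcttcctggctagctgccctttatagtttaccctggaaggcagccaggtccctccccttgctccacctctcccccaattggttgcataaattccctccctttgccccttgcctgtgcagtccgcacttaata
Gstz1 held 2 matches, Selenbp1 1, and Gstm7 and Hpd 0 in these windows. Gstz1 and Gstm7 have another RefSeq start each, and the windows before these, chr12:87157353-87157602 and chr3:107931615-107931864, held 1 match each. Matches to 5 letters are frequent in such windows. Of the windows that could be matched to genes, 333 of 542 (61.4%) of genes called lower and 335 of 551 (60.8%) of genes called higher held CACCC or GGGTG, against 57.3% over all tested genes and 52% over all windows of the table. A match is a description of the letters and shows no binding.

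Many enzymes of fatty acid oxidation were higher in BKO mice. In mitochondria 12 of 25 genes rose (48%, against 4.93% of all genes) and 0 fell (median 0.26). Of the 25 differences 24 were positive, against 5807 of all 11814. Cpt2, the inner carnitine palmitoyltransferase, had 223, 257 and 281 FPKM in BKO mice and 161, 147 and 131 FPKM in FF mice (0.79, SE 0.09, adjusted p = 3.31e-06). Cpt1b, the outer enzyme that admits fatty acids, had 512, 573 and 655 FPKM in BKO mice and 422, 384 and 334 FPKM in FF mice (0.61, adjusted p = 0.000788, but 0.074 with the covariate). The carnitine carrier Slc25a20 stood at 349, 415 and 405 FPKM in BKO mice and 307, 271 and 251 FPKM in FF mice (0.49, adjusted p = 0.000304). Etfdh, which passes electrons from the oxidation steps to the respiratory chain, was higher by 0.52. Of these rises 5 of the 12 lost their call without 1 or another of the 6 libraries, and 3 of the 25 genes were called with the covariate, Cpt2, Slc25a20 and Acad11. In the fit of the 6 libraries alone 1 of the 25 was called.

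Peroxisomal genes parted in 2 directions, 10 of 37 higher and 5 lower (median 0.16). With the covariate 1 was higher and 2 lower, and the fit of the 6 libraries alone gave the same counts. Cat, catalase, had 637, 698 and 674 FPKM in BKO mice and 443, 460 and 414 FPKM in FF mice (0.61, SE 0.09, adjusted p = 0.000198). Pex11a and Pex6, which act in division of peroxisomes and import into them, were higher by 0.46 and 0.56 (adjusted p = 0.0513 and 0.064 with the covariate). Pecr, a trans-2-enoyl-CoA reductase, had 9.21, 8.76 and 8.86 FPKM in BKO mice and 25.1, 22.8 and 24.5 FPKM in FF mice (-1.34, SE 0.09, adjusted p = 8.12e-10). Pxmp2, a channel of the peroxisomal membrane, had 13.1, 13.9 and 16.4 FPKM in BKO mice and 56.8, 44.4 and 56 FPKM in FF mice (-1.79, adjusted p = 2.96e-09). Decr2 and Ddo, peroxisomal dienoyl-CoA reductase and D-aspartate oxidase, were chosen after their values were seen. Decr2 had 61.7, 74 and 67.2 FPKM in BKO mice and 38.7 to 40.2 FPKM in FF mice (0.75, adjusted p = 1.34e-06). Ddo had 27.4, 27.3 and 27.2 FPKM in BKO mice and 17, 17.6 and 17 FPKM in FF mice (0.64, adjusted p = 1.4e-05), a gap wider than the spread of either group.

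On the lipid droplet 5 of 16 genes rose (31.2%, against 4.93% of all genes) and 0 fell (median 0.28). Plin1, the perilipin that guards the droplet of adipocytes, had 453, 535 and 634 FPKM in BKO mice and 254, 351 and 158 FPKM in FF mice (1.14, SE 0.17, adjusted p = 0.000106). Cideb, a droplet protein, had 3.90, 3.24 and 4.18 FPKM in BKO mice and 1.17, 1.64 and 1.23 FPKM in FF mice (1.03, adjusted p = 3.71e-05). Bscl2, seipin, was higher by 0.72, and hormone-sensitive lipase Lipe by 0.33 and monoglyceride lipase Mgll by 0.49. With the covariate Plin1, Cideb and Bscl2 were called (adjusted p = 0.0253, 0.0208 and 0.0283) and Lipe and Mgll were not (0.588 and 0.477).

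Triglyceride synthesis had 3 of 17 genes higher and 2 lower, among them the acyltransferases Agpat3 (0.54) and Dgat1 (0.49, adjusted p = 0.0118). With the covariate 0 of the 17 were called by limma, 4 at an unadjusted p under 0.05. In de novo lipogenesis 1 of 18 rose and 1 fell, 5.56% each, near the 4.93% and 4.53% of all genes. The median was -0.23, and with the covariate 1 fell. Acly, ATP citrate lyase, which supplies its acetyl-CoA, had 78.5, 52.7 and 54.5 FPKM in BKO mice and 278, 158 and 138 FPKM in FF mice (-1.57, SE 0.30, adjusted p = 0.00159). In fed mice Acly stood at 1061 ± 455 FPKM in BKO mice, against 1274 ± 479 FPKM in FF mice (SD, n = 3 each), far above all 6 fasted libraries. Fasn, fatty acid synthase, had 796, 702 and 625 FPKM in BKO mice and 1709, 879 and 1106 FPKM in FF mice, without overlap but without a call (-0.75, adjusted p = 0.0677). Its zeros in the other 20 libraries are failed estimates, so its spread was taken from these 6 libraries alone. Srebf1, the transcription factor that drives lipogenic genes, was higher, at 20.6, 22.9 and 26.5 FPKM in BKO mice and 15.2, 14.5 and 10.8 FPKM in FF mice (0.75, adjusted p = 0.0178, but 0.643 with the covariate). Scd1 was listed at 0 in all 26 libraries. Gpd1, which is at 0 in the 14 libraries of cold and of cold plus fasting, had values in all 6 fasted libraries at room temperature. It was not called (-0.02, adjusted p = 0.948).

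Glucose handling had 5 of 21 genes lower and 2 higher (median -0.13), and with the covariate 3 were lower. In the 6 libraries alone 1 was called lower, Pfkfb1, and 0 higher, so the fall of Slc2a4 was not called there. Slc2a4, the insulin-dependent glucose transporter, had 83, 85.7 and 110 FPKM in BKO mice and 165, 128 and 159 FPKM in FF mice (-0.70, SE 0.11, adjusted p = 0.00033). Pfkfb1, which sets the level of fructose 2,6-bisphosphate, had 5.64, 4.70 and 5.29 FPKM in BKO mice and 20.2, 12.8 and 15.5 FPKM in FF mice (-1.45, adjusted p = 1.76e-06). Slc2a1, the basal glucose transporter, fell by 0.54. Pdk4, the kinase that closes the pyruvate dehydrogenase gate in fasting, had 1120, 1527 and 1125 FPKM in BKO mice and 1480, 1140 and 1359 FPKM in FF mice, with overlap (-0.08, adjusted p = 0.849, and 0.28 with the covariate).

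In the citric acid cycle 4 of 19 genes rose and 0 fell (median 0.13), in the nuclear-encoded respiratory chain 3 of 78 rose and 0 fell (median 0.14), and in the mitochondrial ribosome 7 of 76 rose and 0 fell (median 0.14). With the covariate 0 genes of these 3 lists were called by limma, and 4, 11 and 10 of them passed an unadjusted p under 0.05. Shares called higher of 21.1% for the cycle, 3.85% for the respiratory chain and 9.21% for the ribosome compare with 4.93% of all genes. Without overlap, BKO mice lay above FF mice in 4 genes of the cycle, 24 of the respiratory chain and 31 of the ribosome, against 12.3% of all genes. Of 76 cytosolic ribosomal proteins 0 were called by limma, 3 at an unadjusted p under 0.05 (median 0.09). Of 37 proteasome subunits 2 fell (5.41%, near the 4.53% of all genes). With the covariate 0 of the 37 were called by limma, 2 at an unadjusted p under 0.05.

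**Figure D3:**
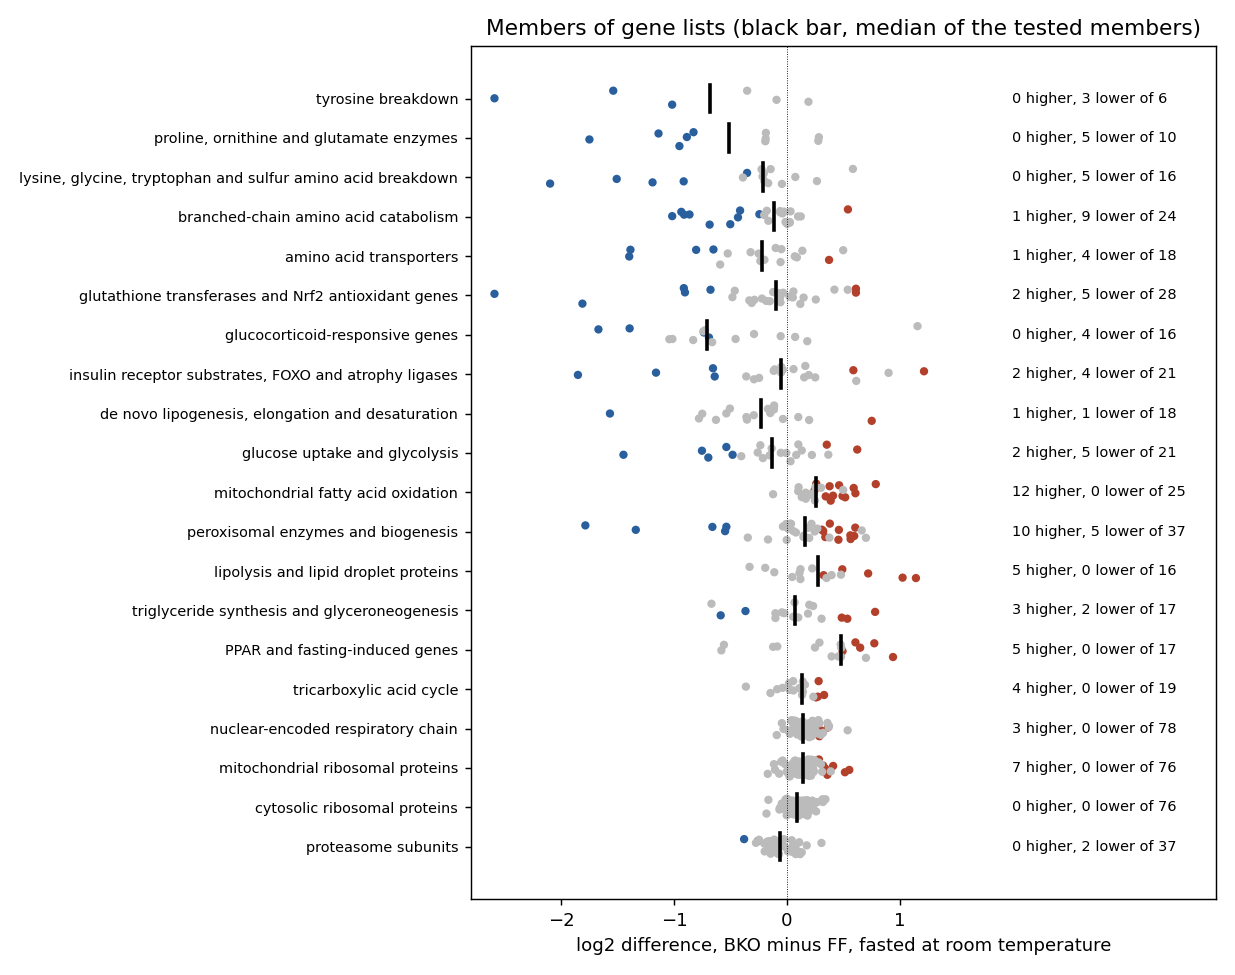
Log2 difference, BKO minus FF, fasted at room temperature (horizontal axis), of the tested members of 20 gene lists (rows). Red points were called higher, blue points lower and grey points were not called; black bars are medians, from -0.71 for glucocorticoid-responsive genes to 0.48 for PPAR and fasting-induced genes.

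Of PPAR and fasting-induced genes 5 of 17 rose and 0 fell (median 0.48). With the covariate 2 were called, Cyp4a10 and Slc25a20, and in the 6 libraries alone 0 were by limma, 10 at an unadjusted p under 0.05. Cyp4a10, a fatty acid hydroxylase, had 1.17, 1.66 and 2.06 FPKM in BKO mice and 0.700, 0.225 and 0.691 FPKM in FF mice (0.78, adjusted p = 0.000193), and Acot2, a mitochondrial thioesterase, was higher by 0.94. Of glucocorticoid-responsive genes 0 of 16 rose and 4 fell (median -0.71), and with the covariate or in the 6 libraries alone 1 was called, Hsd11b1. Hsd11b1, the enzyme that regenerates active glucocorticoid, had 136, 106 and 106 FPKM in BKO mice and 378, 274 and 271 FPKM in FF mice (-1.39, SE 0.17, adjusted p = 1.4e-05). Fkbp5, a chaperone of the glucocorticoid receptor, had 19.4, 13.3 and 10.5 FPKM in BKO mice and 69.1, 16 and 89.6 FPKM in FF mice, where replicate 2 fell among the BKO libraries (-1.67, SE 0.48, adjusted p = 0.0296, but 0.184 without FF replicate 3 and 0.717 with the covariate). Klf9, a Krüppel-like factor on the same list, fell by 0.73 and Cdkn1a by 0.69. Klf11, another factor of the family, was higher, at 10.1, 13 and 8.25 FPKM in BKO mice and 6.21, 4.05 and 4.29 FPKM in FF mice (0.97, adjusted p = 0.00277).

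In the list of insulin receptor substrates, FOXO factors and atrophy ligases 4 of 21 fell and 2 rose, and with the covariate 0 were called by limma, 3 at an unadjusted p under 0.05. Foxo1, which acts when insulin is low, had 6.39, 8.48 and 8.67 FPKM in BKO mice and 18.2, 21.6 and 16.4 FPKM in FF mice (-1.16, SE 0.26, adjusted p = 0.00577, but 0.367 with the covariate). Trim63, a ubiquitin ligase of muscle atrophy, had 11.9, 2.71 and 4.00 FPKM in BKO mice and 14.2, 11.6 and 57.8 FPKM in FF mice, with overlap (-1.85, adjusted p = 0.00349). Fbxo32, the other such ligase, moved the opposite way, at 4.78, 6.45 and 4.19 FPKM in BKO mice and 3.26, 2.31 and 3.65 FPKM in FF mice (0.59, adjusted p = 0.0301, but 0.397 with the covariate). Trim63 and Fbxo32 are transcribed in skeletal muscle as well, whose markers were highest in replicate 1 of both genotypes. Trim63 was highest in FF replicate 3, where the muscle markers summed to 18 FPKM. Fbxo32 was highest in BKO replicate 2, where they summed to 48.1 FPKM. The part of muscle in these 2 genes was not tested. Of autophagy genes 4 of 25 fell (16%, against 4.53% of all genes) and 0 rose. Neither the covariate nor the 6 libraries alone left any of these calls by limma, with 2 and 5 of the 25 at an unadjusted p under 0.05.

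In the list of adrenergic signalling 2 of 27 genes rose (7.41%) and 1 fell (3.7%), near the 4.93% and 4.53% of all genes. Both rises were receptors of noradrenaline. Adrb3 had 76.9, 151 and 154 FPKM in BKO mice and 35, 67 and 39 FPKM in FF mice (1.41, SE 0.30, adjusted p = 0.00397), and Adrb1 had 19.3, 7.14 and 7.12 FPKM in BKO mice and 4.05, 3.00 and 2.17 FPKM in FF mice (1.46, adjusted p = 0.0108). Neither passed with the covariate (adjusted p = 0.26 and 0.62). Of thermogenic genes 2 of 21 rose (9.52%) and 3 fell (14.3%). With the covariate 0 genes of either list were called by limma, 5 adrenergic and 6 thermogenic genes at an unadjusted p under 0.05. Ppargc1a, the coactivator of mitochondrial biogenesis, was lower, at 8.32, 17.4 and 16.9 FPKM in BKO mice and 38.2, 31.7 and 30.3 FPKM in FF mice (-1.24, adjusted p = 0.0305, but 0.231 with the covariate). Dio2, the deiodinase that activates thyroid hormone, had 49.4, 35.6 and 32.9 FPKM in BKO mice and 68.8, 137 and 62 FPKM in FF mice (-1.09, adjusted p = 0.0851). Secreted factors had 4 of 15 genes higher and 1 lower, among them adiponectin (Adipoq, 0.51) and adipsin (Cfd, 0.67), and with the covariate 0 were called by limma, 4 at an unadjusted p under 0.05. Fndc5, the precursor of irisin, had 2.51, 2.52 and 2.17 FPKM in BKO mice and 0.716, 0.665 and 0.612 FPKM in FF mice (1.03, adjusted p = 0.00148). Of 19 immediate-early genes 2 fell and 0 rose, the kinase Plk3 (-2.03) and the nuclear receptor Nr4a3 (-1.61), of which Plk3 was called with the covariate.

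The largest rises included short RNAs and RIKEN genes. Gm27533, of 152 bases, had 48.7, 21.6 and 15.1 FPKM in BKO mice and was listed at 0 in the 3 FF mice, and Gm25835, of 144 bases, had 11.5, 5.34 and 3.97 FPKM in BKO mice and was also listed at 0 in FF mice. FPKM of transcripts shorter than a typical fragment are uncertain, and no fold is given. 2610507I01Rik had 4.42, 4.65 and 4.69 FPKM in BKO mice and 0.687, 0.770 and 0.462 FPKM in FF mice (1.77, adjusted p = 0.00235, but 0.332 with the covariate). In fed mice it had 4.29, 4.23 and 0.797 FPKM in BKO mice, against 1.15, 1.24 and 4.05 FPKM in FF mice, so that its level did not follow genotype there. In fed FF mice its high value was that of the library with the late number, but the low value in fed BKO mice came from a late number too. The part of library number in this gene was not tested. Lgr6, a receptor for R-spondins, had 16.3, 21.3 and 20.7 FPKM in BKO mice and 5.62, 9.24 and 3.20 FPKM in FF mice (1.62, SE 0.30, adjusted p = 0.0012). Dusp6, a phosphatase of the ERK pathway, Hebp2, a heme-binding protein, and Fam131c, of no known role given here, were also among the 15 largest rises (1.48, 1.18 and 1.34). Among the 15 largest falls were Fam134b (-1.65), a receptor for autophagy of the endoplasmic reticulum, and the sorting receptor Sorcs2 (-1.56). Osbp2, an oxysterol-binding protein, had 0.670, 0.490 and 0.650 FPKM in BKO mice and 4.16, 3.94 and 5.03 FPKM in FF mice (-1.74, SE 0.17, adjusted p = 6.62e-07), and in cold plus fasting it differed by -0.90 (adjusted p = 0.0183).

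Some of these calls rested on single libraries. Without BKO replicate 3 the rises of Lipe, Mgll, Dgat1, Srebf1, Adipoq, Cfd and Slc36a2 lost their call, with adjusted p of 0.0724 (Adipoq) to 0.17 (Lipe), and all 7 lost it without FF replicate 3 as well, at 0.0595 (Adipoq) to 0.152 (Lipe). Adrb1 lost its call without BKO replicate 1 (adjusted p = 0.0703), the library where it was highest, and without FF replicate 3 (0.0701). Ppargc1a lost it without BKO replicate 1 (adjusted p = 0.143), BKO replicate 3 (0.0573), FF replicate 1 (0.0906) or FF replicate 3 (0.0779). Fbxo32 lost it without BKO replicate 2 (0.142) or FF replicate 2 (0.118), and Klf9 without BKO replicate 1 (0.0634), FF replicate 1 (0.0722) or FF replicate 3 (0.0552). Fkbp5 and Cdkn1a lost it without most of the single libraries, and Dusp6, Gsn and Gm25835 without any 1 of the 6. With the covariate the calls of Trim63 (adjusted p = 0.142), Acot2 (0.123), Slc2a1 (0.114), Slc43a1 (0.202), Agpat3 (0.198), Hebp2 (0.237), Fam134b (0.217), Klf9 (0.238), Cdkn1a (0.439), Gcdh (0.357), Slc1a4 (0.256), Slc36a2 (0.156), Dgat1 (0.283), Cfd (0.188), Dusp6 (0.544), Gsn (0.51), Gm27533 (0.535) and B930041F14Rik (0.231) ended, and those of Etfdh (0.0666), Klf11 (0.0521), Fndc5 (0.0715), Nr4a3 (0.0893), Lgr6 (0.074), Gstm2 (0.0802), Fam131c (0.0566), Sorcs2 (0.0521), Adipoq (0.0597), Myl1 (0.0855) and Gm25835 (0.0909) missed the threshold.

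Mice in cold plus fasting gave a genotype comparison within late library numbers, in other animals. It called 29 genes (0.246%), 2 higher (0.0169%) and 27 lower (0.229%) in BKO mice, and 666 at an unadjusted p under 0.05. Of the 27 lower genes 24 were also lower in fasted mice at room temperature, which is 88.9% of the cold plus fasting list and 4.49% of the 535. Of the 582 genes higher in fasted mice at room temperature 1 was also higher in cold plus fasting (0.172%), the RIKEN gene B930041F14Rik, with log2 differences of 0.89 and 0.86. At an unadjusted p under 0.05 and the same sign, 86 of the 535 falls (16.1%) and 19 of the 582 rises (3.26%) were seen in cold plus fasting. Over all 11812 genes tested there, 399 were lower and 267 higher at that limit. The 19 rises are therefore not read as a shared response.

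The genes lower in both conditions include 10 of the 22 amino acid genes above, namely Gstz1, Hpd, Prodh, Aldh4a1, Aldh6a1, Ivd, Mut, Cbs, Cth and Dhtkd1. Hpd, Cbs and Cth had passed the filter only through the fasted FF libraries at room temperature. Gstz1 differed by -2.59 in fasted mice at room temperature and -2.46 in cold plus fasting, where it stood at 30.9 ± 2.99 FPKM in BKO mice, against 174 ± 10.01 FPKM in FF mice (SD, n = 3 each). Adhfe1 differed by -1.95 and -1.73, Gstm7 by -1.81 and -1.68, and Hpd by -1.54 and -1.45. For Pxmp2, in contrast, the difference of -1.79 was larger than the -0.80 in cold plus fasting (adjusted p = 0.0126 for the difference between the conditions, but 0.244 with the covariate).

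**Figure D4:**
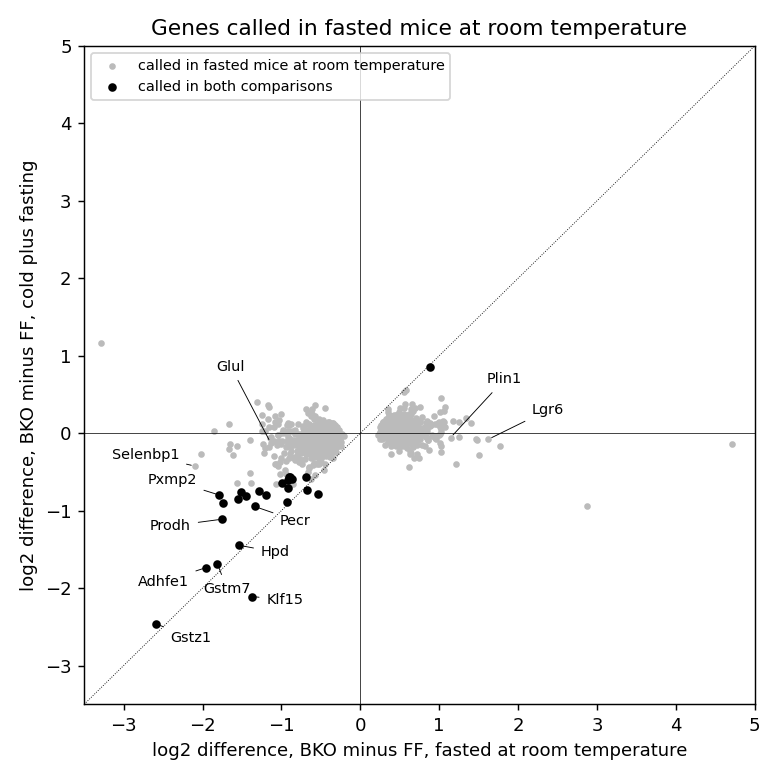
Log2 difference, BKO minus FF, in fasted mice at room temperature (horizontal axis) and in cold plus fasting (vertical axis) of the genes called in the first comparison, with the line of equal differences dotted. Black points, called in both, lie at the lower left from Gstz1 to genes near -0.6 and once at the upper right; most rises, such as Plin1 and Lgr6, lie near 0 on the vertical axis.

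The genotype difference itself was set against that of fed mice at room temperature. It was called different in 103 genes (0.872%), 46 more positive (0.389%) and 57 more negative (0.483%) in fasted mice. Without fed FF replicate 3 both FF groups hold early and both BKO groups late library numbers, so that an offset common to the late libraries drops out of this difference of differences. In that fit 107 genes were called, 42 and 65, of which 68 were among the 103. Counts ranged from 23 without fasted BKO replicate 3 to 290 without fasted FF replicate 2, so they are uncertain, and with the 2 libraries of early number in fed FF mice the estimate rests on few animals.

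Selenbp1 was the clearest case. It stood at 25.8 ± 3.91 FPKM in fasted BKO mice and 114 ± 21.7 FPKM in fasted FF mice, against 20.8 ± 1.26 FPKM in fed BKO mice and 27.5 ± 5.20 FPKM in fed FF mice (SD, n = 3 each). Only the fasted FF libraries were high, and the differences of -2.10 fasted and -0.37 fed differed by -1.73 (SE 0.21, adjusted p = 0.000329, and 0.000687 without fed FF replicate 3). In cold plus fasting it stood at 20.2 ± 3.14 FPKM in BKO mice, against 27.5 ± 3.97 FPKM in FF mice, low in both, and the genotype differences of the 2 conditions differed (adjusted p = 0.000595).

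Glul followed the same pattern, at 888 ± 181 FPKM in fasted BKO and 1979 ± 519 FPKM in fasted FF mice, and 1023 ± 111 FPKM in fed BKO and 935 ± 20.3 FPKM in fed FF mice (difference -1.26, adjusted p = 0.0044, and 0.0103 without fed FF replicate 3). Tango2, a gene of unsettled function in lipid and heme traffic, stood at 8.5 ± 1.39 FPKM in fasted BKO and 21.9 ± 5.58 FPKM in fasted FF mice, and 10.4 ± 0.977 FPKM in fed BKO and 11.1 ± 0.492 FPKM in fed FF mice (-1.16, adjusted p = 0.00363). Cth was lower fasted than fed within BKO mice (-0.56, adjusted p = 0.00795) and higher fasted than fed within FF mice (0.85, adjusted p = 0.000135). Cbs was higher fasted than fed in both genotypes, by 0.49 in BKO mice and 1.64 in FF mice, and the difference of -1.15 was called (adjusted p = 0.00363).

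Slc2a4 was lower fasted than fed in both genotypes, by 1.76 in BKO and 0.98 in FF mice on the log2 scale, and the fall was the larger in BKO mice (-0.77, adjusted p = 0.022). In contrast, Plin1 and Lgr6 were lower in fasted than in fed mice of the FF genotype. Plin1 stood at 541 ± 90.3 FPKM in fasted BKO and 254 ± 96.5 FPKM in fasted FF mice, and at 585 ± 63.2 FPKM in fed BKO and 550 ± 34.8 FPKM in fed FF mice (difference 1.06, adjusted p = 0.0355, but 0.0543 without fed FF replicate 3 and 0.0508 with the covariate). Decr2 was higher fasted than fed within BKO mice (0.99, adjusted p = 4.4e-09), and within FF mice the difference was 0.19 (adjusted p = 0.062). For Cat the values were 1.13 within BKO and 0.58 within FF mice, and their difference of 0.55 was called (adjusted p = 0.0463, but 0.0589 with the covariate). The genotype and feeding comparisons share the fasted libraries, so they are not independent of one another.

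**Figure D5:**
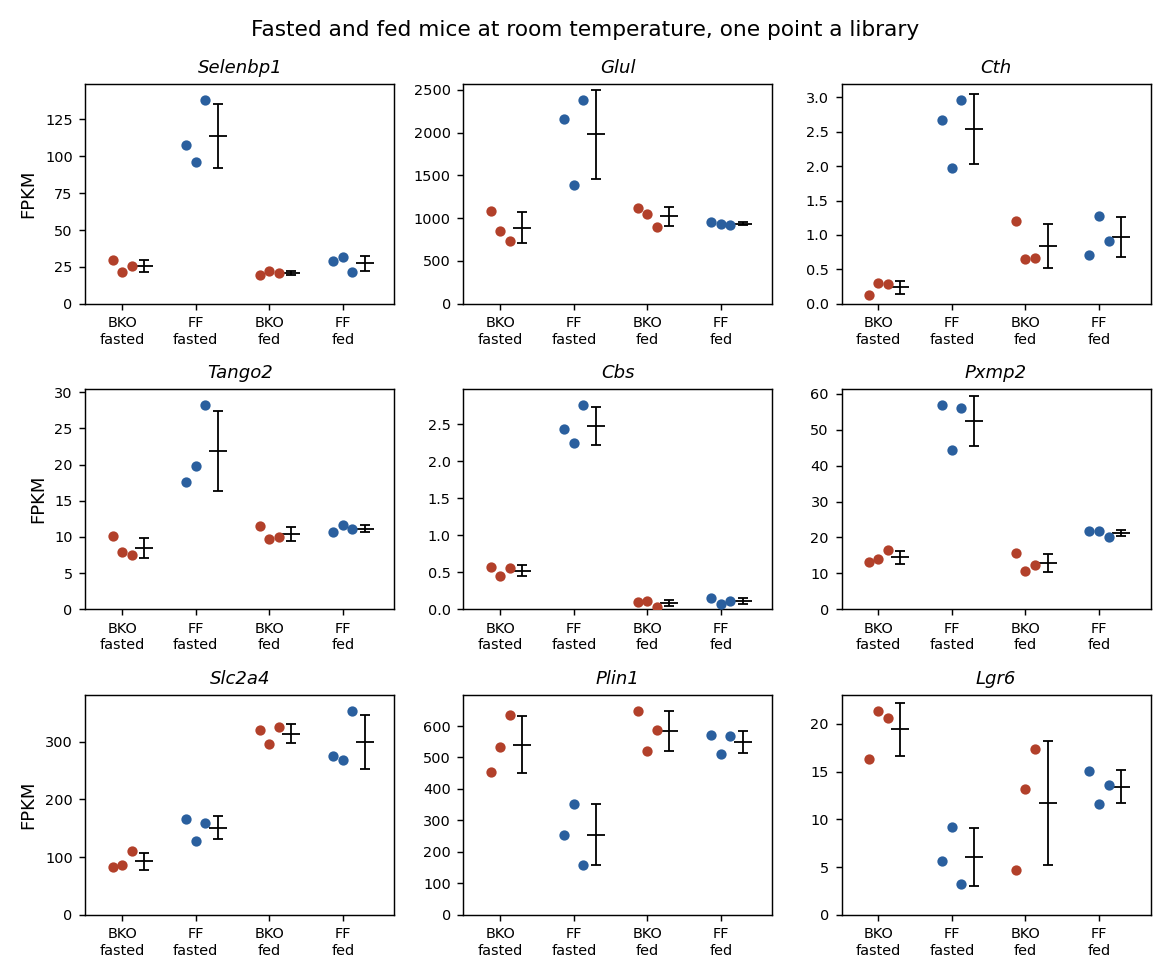
FPKM of 9 genes in each library of fasted BKO, fasted FF, fed BKO and fed FF mice (from left to right; vertical axes from 0), BKO in red and FF in blue, with mean and SD as black bars. For Selenbp1, Glul, Tango2 and Pxmp2 the fasted FF libraries stand above the other 3 groups, and for Plin1 they stand below them.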

How the data were processed

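RNA sequencing of brown adipose tissue was deposited as 1 table of FPKM for 48432 genes in 26 libraries. The authors made these FPKM with STAR, Cufflinks and Cuffdiff on mm10, per the submitters' processing notes, and versions and settings are not given in the sources used here. Counts and depth were not used here, so no counting interval is given, and p-values measure only the spread between libraries. Each library carries its own animal number, per the labels.

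A gene was tested if it reached 1 FPKM in 3 of the 6 fasted room-temperature libraries. A linear model with 8 group means over the 26 libraries was fitted to log2(FPKM + 1) with limma 3.58.1 (moderated variance with a trend, R 4.3.3), and a gene was called at a Benjamini-Hochberg adjusted p under 0.05 over all genes tested. A zero was treated as a failed estimate and left out where all other values of the gene were at least 100 FPKM, which touched 33 genes. Of the 48432 rows, 48051 were matched by Ensembl ID to GENCODE M21 (GRCm38), the source of coordinates. Named genes are Klf15 and 10 genes of thermogenesis and metabolism, of which Fgf21 did not pass the filter, the 15 largest rises and falls without overlap and with at least 2 FPKM in the higher group, the 8 largest each way called also in cold plus fasting, the 6 largest each way in each difference of differences, and up to 5 members of each list with the smallest adjusted p. The text gives a selection of the genes this rule names, and 1 gene is not reported here. Genes chosen otherwise are marked in the text, and Gpd1 and the members of marker lists are given as checks. The members, the 54 gene lists and the tests were chosen with earlier results of these data known. Promoters are from RefSeq (GRCm38.p6). No other columns of samples were in the table. Alternatives were the pseudocount, the filter, 2 further scalings, the 6 libraries alone, the covariate, array weights, the limit for failed zeros and leaving out each library.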

Additional observations from a re-analysis of the deposited data

Results flagged for a closer look

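The genotype difference, BKO minus FF, of fasted mice at room temperature was set against that of fed mice and that of mice in cold plus fasting, and 58 such differences of differences among the named genes, in 40 different genes, passed an adjusted p of 0.05 by limma. All values are on the log2(FPKM + 1) scale, and a negative one means that BKO mice stood lower against FF mice when fasted at room temperature than in the other condition. Both comparisons use the same 6 fasted libraries, where genotype and library number cannot be told apart.

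Against fed mice 34 differences passed, of which 23 also passed with the covariate for library number and 25 without fed FF replicate 3, the FF library there with a late number. The 11 that did not pass with the covariate were Prelp, Plin1, Tspan4, Bok, Acot7, Bckdk, Fbxo32, Pecr, Cat, Glud1 and Oat. Klf15 itself differed by 1.17. Among amino acid genes these were Prodh (-1.11), Glul (-1.26), Glud1 (-0.45), Oat (-0.65), Hpd (-0.85), Cth (-1.41), Cbs (-1.15), Selenbp1 (-1.73) and Bckdk (0.51). Among peroxisomal genes they were Pxmp2 (-1.1), Pecr (-0.53), Cat (0.55), Decr2 (0.81) and Ddo (0.77). Lipid genes were Cpt2 (0.59), Plin1 (1.06), Cideb (0.96), Cyp4a10 (0.77) and Acot7 (-0.62). Of the others, negative were Dio2 (-2.51), Slc2a4 (-0.77), Plk3 (-2.56), Tspan4 (-1.3), Aldh1l1 (-1.1), Slc25a33 (-1.41), Tnfrsf12a (-1.36) and Tango2 (-1.16), and positive were Lgr6 (1.96), Prelp (1.14), Mfsd4b1 (1.26), Bok (1.23), Spata22 (1.13) and Fbxo32 (0.99).

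Against mice in cold plus fasting 24 differences passed, of which 3 also passed with the covariate, Selenbp1, Tango2 and Decr2. Among amino acid genes these were Glul (-1.01), Glud1 (-0.53) and Selenbp1 (-1.67). Among peroxisomal genes they were Pxmp2 (-0.99), Cat (0.7), Decr2 (0.74) and Ddo (0.65). Lipid genes were Cpt2 (0.73), Acad11 (0.65), Plin1 (1.2), Cideb (1.27), Cyp4a10 (0.93) and Agpat3 (0.6). Of the others, negative were n-R5-8s1 (-4.46), Tspan4 (-1.78), Slc25a33 (-1.28), Tnfrsf12a (-1.49), Tango2 (-1.37) and Slc25a47 (-0.76), and positive were Prelp (1.3), Mfsd4b1 (1.11), Irs3 (1.62), Spata22 (1.09) and Cpn2 (1.13). n-R5-8s1 is a ribosomal RNA of 148 bases, listed at 0 in 2 of the 3 fasted BKO libraries.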

How the results depend on the processing

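Genotype and library number coincide among the 6 libraries, and the number of calls moved more than the direction of single genes. For fasted BKO minus FF, the 6 libraries alone called 162 genes (52 higher, 110 lower) and the covariate 152 (54 higher, 98 lower), against 1117 (582 and 535). Leaving out 1 library gave 428 (without BKO replicate 3) to 1418 (without FF replicate 2) calls, 191 to 711 higher and 237 to 707 lower. The difference against fed mice had 103 calls, 177 with quantile normalization, 300 with array weights and 23 to 290 without 1 library. That against cold plus fasting had 64 calls, 36 at a mean of at least 5 FPKM, 161 with quantile normalization, 5 with the covariate, 249 with array weights and 17 (without FF replicate 3) to 328 (without FF replicate 2) otherwise. The 29 calls of cold plus fasting became 19 at a mean of at least 5 FPKM, 153 with array weights, and 18 to 39 without 1 library. With the covariate Ucp1 turned to -0.39 (adjusted p = 0.633) and Pdk4 to 0.28 (adjusted p = 0.74), neither of them called in any of these fits; the cause was not tested. Of the named genes' fasted differences, 106 lost the call with the covariate, 97 with the 6 libraries alone, 32 with array weights, 28 with no filter, 11 with median-ratio scaling, 8 with quantile normalization, 7 with a pseudocount of 0.1, 1 at a mean of at least 5 FPKM and 0 with zeros removed from 10 FPKM. No paired analysis was possible because the labels give the groups no shared replicate numbers.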
